A study of Mus musculus with 6 samples.

Results

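The genes described here are 36 macrophage and dendritic cell genes, taken by symbol from the 23420 genes of the count table. Of these, 35 stood in the table under the listed symbol, and Spi1 stood there under its former symbol, Sfpi1. A total of 33 members exceeded 1 CPM (counts scaled to the total of the library) in at least 3 libraries and were tested among 13168 genes. This filter used library totals before normalisation, whereas all CPM values below are scaled to the normalised library size. The 3 others, Batf3, Trem2 and Clec10a, are given as counts.

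Whole proximal jejunum of male ob/ob mice, which lack functional leptin and overeat, and of C57BL/6J wild-type (WT) mice was profiled by RNA sequencing. The study asked how the gut of overeating animals differs from that of lean ones. There were 3 libraries per genotype, each from a pool of 2 jejuna, and a piece of 1 cm of washed bowel was used from each animal. The mice were purchased, fasted before sacrifice according to the general methods, and are not described as littermates. The sources used here do not give the age of the sequenced animals. No cells were sorted, so the member transcripts came from a tissue in which myeloid cells are a small part. In such bulk samples fewer cells of a type and less RNA per cell cannot be told apart.

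Macrophages and dendritic cells populate the lamina propria beneath the gut epithelium. Macrophages depend on the receptor Csf1r and its ligands, are replenished in the adult gut by monocytes that enter through Ccr2, and take up dead cells and bacteria. Dendritic cells depend on the receptor Flt3 and its ligand, carry antigen to lymph nodes, and are divided into a lineage marked by Xcr1 and Clec9a, which needs Irf8 and Batf3, and a second lineage that includes cells with Cd209a. Many members are not restricted to these cells: Irf8, Laptm5, Ctss and Cd86 are also expressed by B cells, and Irf8 is induced by interferon gamma.

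The defining markers were present at low levels. Csf1r had 39.7, 48.2 and 54.6 CPM in the ob/ob libraries and 60.7, 50.9 and 53.1 CPM in the WT libraries. Epithelial transcripts dominated the same libraries, with a summed level of 10 epithelial genes of 39720 to 42460 CPM in ob/ob and 31470 to 36450 CPM in WT. The libraries held 14661981 to 18286080 counts, so that a count of 3 in 1 library corresponded to 0.159 to 0.198 CPM. Replicate libraries differed beyond sampling noise (chi-square divided by its degrees of freedom, 8.13 to 16.6), and each was kept as a separate sample. Lep, the mutated gene, was low in both groups (0.869 CPM in ob/ob, 0.875 CPM in WT), and its transcript need not be lost by the mutation, so that it does not check the labels.

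WT library 1 stood apart from the other libraries for these genes. It had the highest CPM for 23 of the 33 tested members, whereas each other library had the highest for 2 members. Over all tested genes, this library was the highest for 18.6%. The mean of the members' log2 CPM, each relative to its own mean over all 6 libraries, was 0.29 in WT library 1 and −0.02 in both other WT libraries. The ob/ob libraries had −0.17, −0.11 and 0.03, so that ob/ob library 3 lay above WT libraries 2 and 3. Genes expressed by all leukocytes moved with it: the same measure over 12 pan-leukocyte genes was 0.68 in WT library 1 and between −0.32 and 0.00 in the other 5 libraries.

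**Figure D1:**
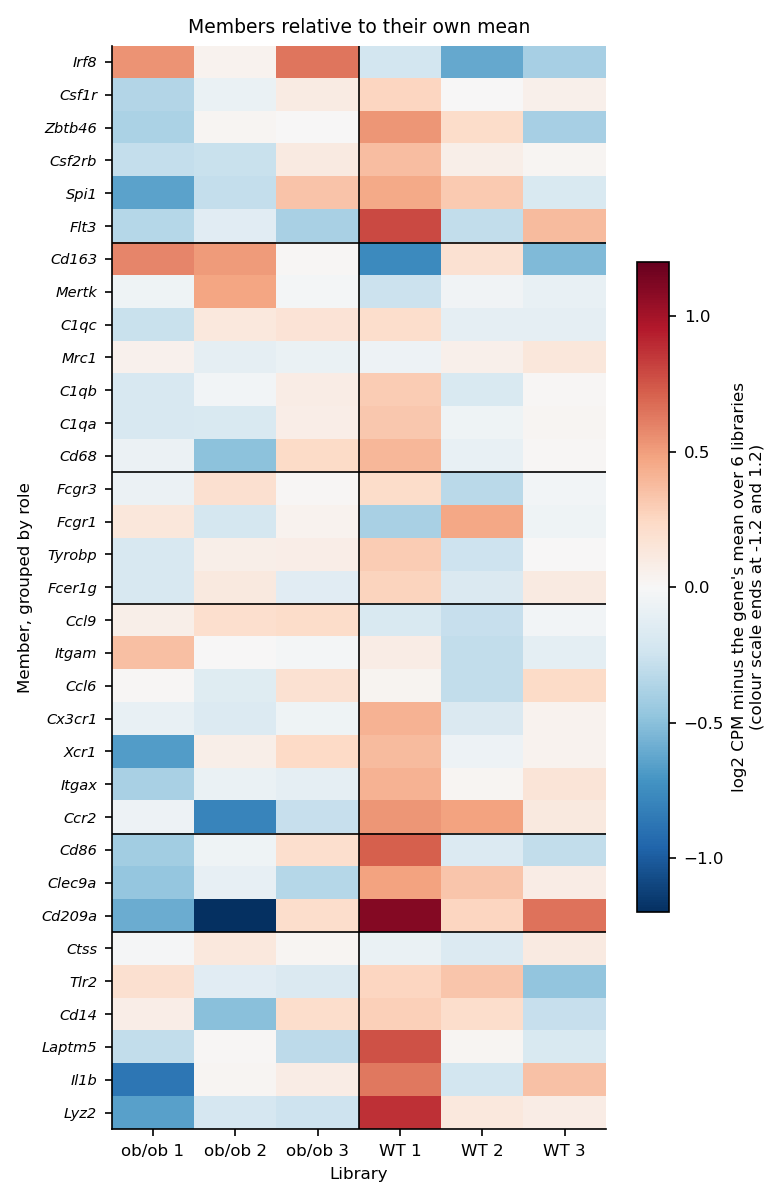
Colours give log2 CPM of each tested member relative to its own mean over the 6 libraries, with 3 ob/ob columns on the left and 3 WT columns on the right and horizontal lines between roles. The WT 1 column is the reddest in most rows, as it was the highest library for 23 of 33 members, and the Irf8 row at the top has the opposite pattern with all 3 ob/ob libraries above WT.

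Among the 33 tested members, Irf8 alone passed the test, and it rose in ob/ob jejunum. The test was the edgeR quasi-likelihood test with Benjamini-Hochberg adjustment over all 13168 genes and a threshold of 0.05. A share of 5.67% of all tested genes passed it, 3.77% higher and 1.91% lower in ob/ob. No member fell by this test, and 6 had an unadjusted p under 0.05 in the lower direction, where 12.7% of all genes did. In the higher direction 3 members had such a p, against 13.2% of all genes. All 3 ob/ob libraries lay below all WT libraries for 5 members and above them for 2 members, while 16.2% and 15.8% of all genes separated in these directions. The counts in the lower direction include Cd209a, which passed the filter through the WT libraries only. Without it, 4 members separated below WT and 5 had an unadjusted p under 0.05 in that direction. Fold changes were below 0 for 24 members and above 0 for 9, with a median log2 fold change of −0.20 beside −0.01 over all genes. Over the 32 members other than Cd209a, with all 6 libraries, the median was −0.18. Without WT library 1, where Cd209a was not tested, the median of the members was −0.04. The count of members called lower depended on the procedure: it was 4 when libraries were scaled by total counts alone, which moved the median of all genes from −0.01 to −0.13, and 5 with the edgeR likelihood ratio test.

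**Figure D2:**
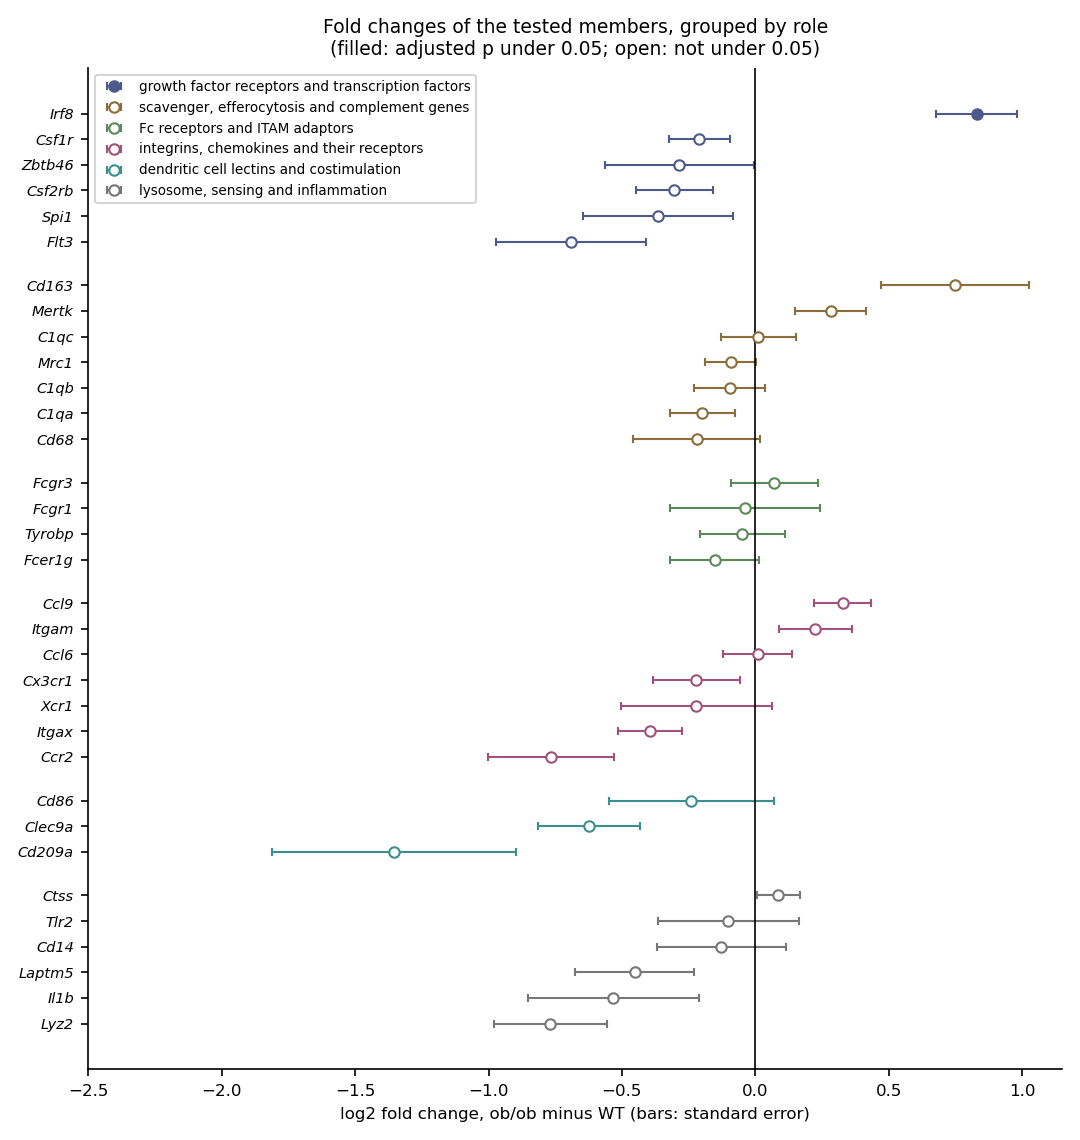
Points give the log2 fold change of each tested member (ob/ob minus WT) with its standard error, grouped and coloured by role. Irf8, at 0.83, is the only filled point, and Cd209a, at −1.35, lies furthest to the left with the widest error.

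Irf8 encodes a transcription factor required for monocytes and for the Xcr1 and Clec9a dendritic cell lineage. It lies at chr8:120736358-120756694 on the plus strand of GRCm38. Its level was 225.8, 159.6 and 240.7 CPM in the ob/ob libraries and 133.1, 101.6 and 117.1 CPM in the WT libraries. The lowest ob/ob library was above the highest WT library, and ob/ob library 2 stood nearest to WT. The mean was 1.78-fold that of WT, with 209 ± 43.2 against 117 ± 15.8 CPM (SD, n = 3 libraries per group) and a log2 fold change of 0.83 ± 0.15 (SE, adjusted p = 0.0197 by edgeR). With 1 library left out the log2 fold change stayed between 0.71 and 0.99, and the adjusted p exceeded the threshold without ob/ob library 1 (0.0761), ob/ob library 3 (0.0651) or WT library 2 (0.0533). Irf8 shared no exon with another annotated gene and no stretch of 50 bases with another transcript.

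The bases before the start of Irf8 are shown because it is the member that passed the test. The window of 250 bases ends at the base before the annotated start and is written 5′ to 3′, chr8:120736108-120736357, plus strand, from RefSeq on GRCm38.p6. Capitals would mark a match to either motif named after the sequence, and this window has none. RefSeq also gives another window for Irf8, chr8:120738389-120738638, which is not shown and has no match.

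Irf8: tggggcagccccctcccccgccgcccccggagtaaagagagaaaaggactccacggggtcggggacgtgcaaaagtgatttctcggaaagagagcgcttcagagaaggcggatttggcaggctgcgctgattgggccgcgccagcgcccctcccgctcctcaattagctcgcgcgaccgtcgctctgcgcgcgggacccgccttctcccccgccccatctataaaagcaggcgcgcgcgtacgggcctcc

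RefSeq windows were matched to 28 of the 36 members, and the background was 32817 windows of the same length. The letters GAGGAAGT, a core bound by PU.1 (the product of Spi1), were searched on both strands and occurred in 2.44% of all windows and in 1 member, C1qc. The letters GGAANNGAA, which PU.1 and IRF8 can bind together, were searched in the same way and occurred in 6.99% of all windows and in 2 members, Cd209a and Ccr2. The match in Cd209a was GGAAGTGAA and that in Ccr2 was GGAAAAGAA. GENCODE M21 places the start of Ccr2 at base 124101950, within its RefSeq window, so that this match lies inside that gene model. Matches of both motifs did not overlap in any member. A match is a description of the letters in the window and does not show a bound site, and the lack of one says only that these letters are not in the window.

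Irf1, which encodes another interferon-induced factor of the same family, rose beside Irf8. It had 341.2, 317.9 and 371.0 CPM in ob/ob and 191.4, 179.0 and 213.5 CPM in WT libraries, a log2 fold change of 0.82 ± 0.08 (edgeR, adjusted p = 0.00473). The groups did not overlap, and the adjusted p was at most 0.0315 with any 1 library left out. Of the 9 interferon regulatory factor genes, a list added after the values had been seen, these 2 passed the test and none fell. Irf5, the factor of inflammatory macrophages, had a log2 fold change of −0.60 (adjusted p = 0.192 by edgeR) that was −0.20 without WT library 1, and Irf4, the factor of the second dendritic cell lineage, had 0.12.

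**Figure D3:**
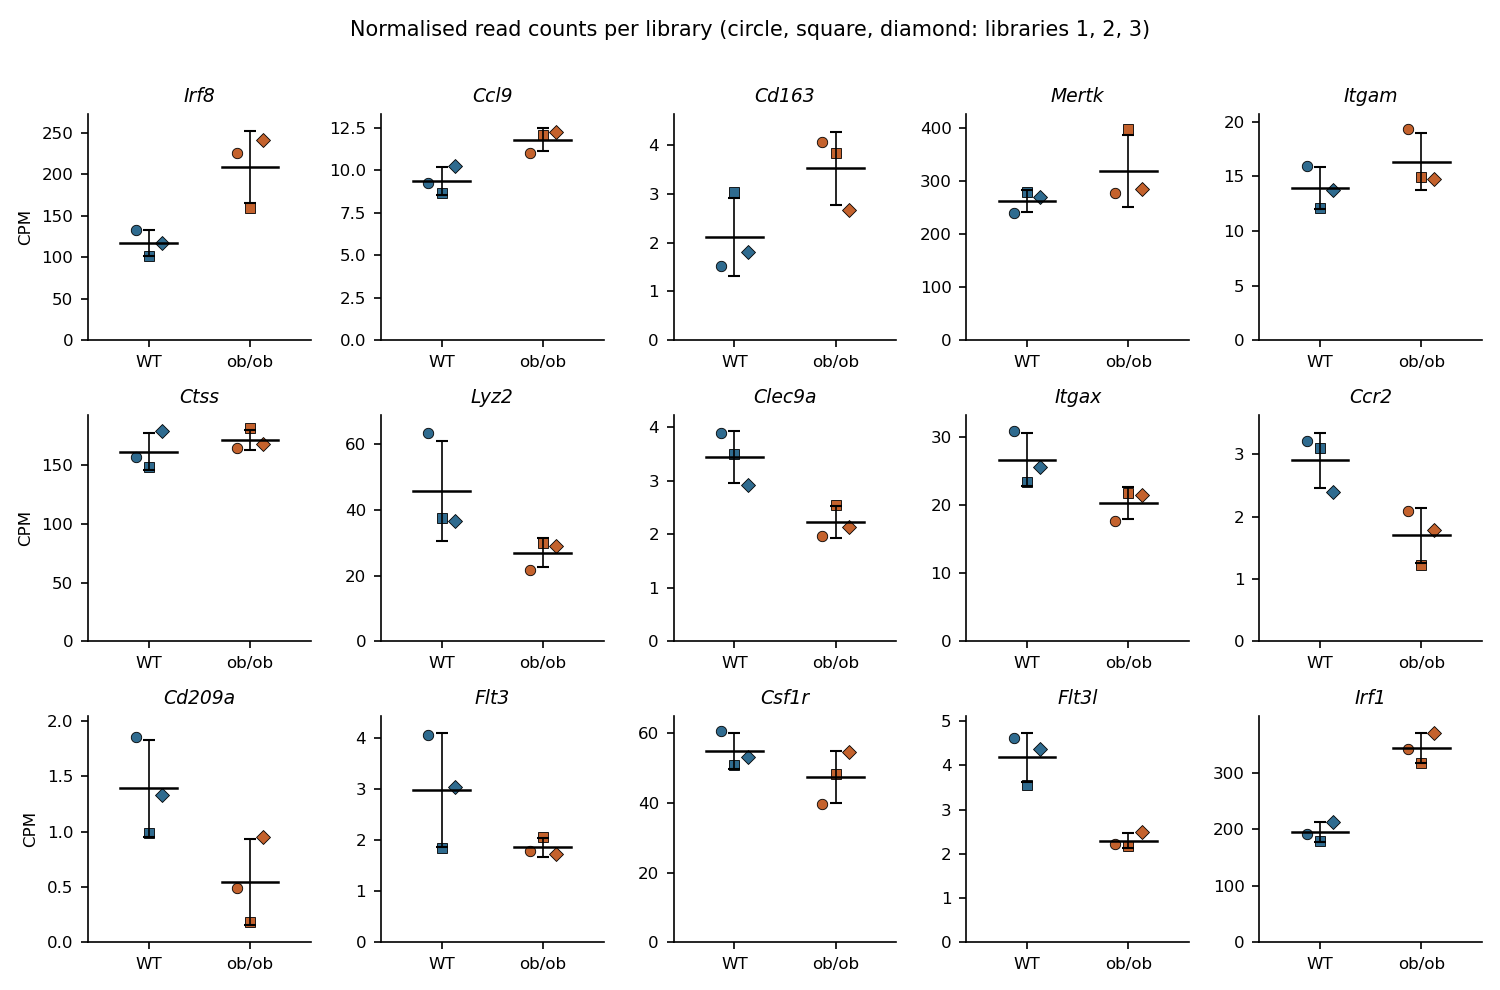
Each panel gives the CPM of 1 gene in the 3 WT (blue) and 3 ob/ob (orange) libraries, with the mean as a bar and the SD as an error bar, on axes that start at 0. The groups do not overlap for Irf8, Ccl9, Lyz2, Clec9a, Itgax, Ccr2 and Cd209a, nor for the ligand Flt3l and for Irf1, while Csf1r, Mertk, Itgam, Ctss, Cd163 and Flt3 overlap.

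Among the growth factor receptors, Csf1r had a log2 fold change of −0.21 ± 0.11 (adjusted p = 0.278), with ob/ob library 3 above WT libraries 2 and 3. Its exons overlap those of Hmgxb3 on the opposite strand, and the sources used here give no strand setting for the counting. The ligands of Csf1r did not pass the test, with means of 9.50 ± 1.98 (ob/ob) and 9.24 ± 0.645 CPM (WT) for Csf1 and of 6.89 ± 0.535 and 6.36 ± 0.311 CPM for Il34 (SD, n = 3).

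Flt3, the receptor on which dendritic cells depend, had 1.79, 2.07 and 1.73 CPM in ob/ob and 4.06, 1.85 and 3.03 CPM in WT libraries. WT library 2 lay within the ob/ob range, and the log2 fold change of −0.69 ± 0.28 did not pass the test (adjusted p = 0.161). Its ligand Flt3l fell, with 2.22, 2.19 and 2.499 CPM in ob/ob and 4.62, 3.56 and 4.36 CPM in WT libraries. All ob/ob libraries lay below all WT libraries, with a log2 fold change of −0.86 ± 0.17 (edgeR, adjusted p = 0.0271). Leaving out a library kept this value between −0.96 and −0.79, but the adjusted p remained under the threshold only without WT library 2 (0.0369) and was 0.0516 to 0.0963 without any of the other 5. Flt3l was the 1 ligand that passed among 7 tested of 14 ligands of member receptors, and none rose. Of all tested genes, 5.67% passed.

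Csf2rb, the shared beta chain of the receptors for GM-CSF, interleukin 3 and interleukin 5, had a log2 fold change of −0.30 ± 0.14 (adjusted p = 0.221). Of its stretches of 50 bases, 12.3% also occur in other genes, among them its near copy Csf2rb2, which had −0.62 (adjusted p = 0.166). The ligand Csf2, which is GM-CSF, had 1.86 ± 0.442 against 2.48 ± 0.401 CPM (adjusted p = 0.293), and Il3 had no count in any library.

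Of the other lineage factors, Spi1, which encodes PU.1, had 1.79, 2.31 and 3.63 CPM in ob/ob and 3.94, 3.56 and 2.498 CPM in WT libraries, with a log2 fold change of −0.36 ± 0.28. Zbtb46, a factor of conventional dendritic cells, had −0.29 ± 0.28, and its value without WT library 1 was −0.03. Batf3 was counted 7, 11 and 17 times in ob/ob and 19, 8 and 11 times in WT libraries. None of these separated the groups. Among 12 further lineage and enhancer factors of monocytes and macrophages, Maf, a factor of macrophages and T cells, fell. It was at 232.7 ± 4.003 against 280.0 ± 18.5 CPM, with −0.27 ± 0.06 (edgeR, adjusted p = 0.0472), and passed the threshold in 1 of 6 fits with a library left out.

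The scavenger, efferocytosis and complement genes showed no call. Their 7 tested members had a median log2 fold change of −0.09, and 3 were above 0. Cd163, the scavenger receptor for haemoglobin bound to haptoglobin, had 4.06, 3.83 and 2.68 CPM in ob/ob and 1.52, 3.03 and 1.81 CPM in WT libraries. WT library 2 was above ob/ob library 3, and the log2 fold change was 0.75 ± 0.28 (adjusted p = 0.132). Mertk, a receptor for dying cells, had 276.5, 397.5 and 283.9 CPM in ob/ob and 239.1, 279.3 and 269.1 CPM in WT libraries. Its log2 fold change of 0.28 ± 0.13 (adjusted p = 0.219) was 0.09 without ob/ob library 2, the library with the highest value. Gas6, which bridges dying cells to Mertk, averaged 55.2 ± 1.96 CPM against 71.0 ± 10.5 CPM in WT, with no overlap between groups but an adjusted p of 0.0660 by edgeR, and was called lower without WT library 1 (−0.48, adjusted p = 0.00833). The other bridging ligand, Pros1, was at 40.0 ± 3.97 and 40.5 ± 3.49 CPM.

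Mertk was also unusual in its level. Per kilobase of exon it reached 60.5 CPM in WT, 6.37-fold that of Csf1r and 28.4-fold that of the mannose receptor Mrc1. In ob/ob libraries the level of Mertk per kilobase was 8.96-fold that of Csf1r. Among the members only Ctss, the lysosomal protease cathepsin S, was higher per kilobase, with 119.0 CPM (WT) and 126.4 CPM (ob/ob), and Ccl6 was next after Mertk, at 53.7 and 54.1 CPM. The cells that the Mertk, Ctss and Ccl6 transcripts came from were not determined. Irf8 per kilobase was 1.75-fold Csf1r in WT and 3.60-fold Csf1r in ob/ob. At the other end were Zbtb46, Xcr1, Cd163, Ccr2 and Flt3, which had 0.239 to 0.482 CPM per kilobase in WT.

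**Figure D4:**
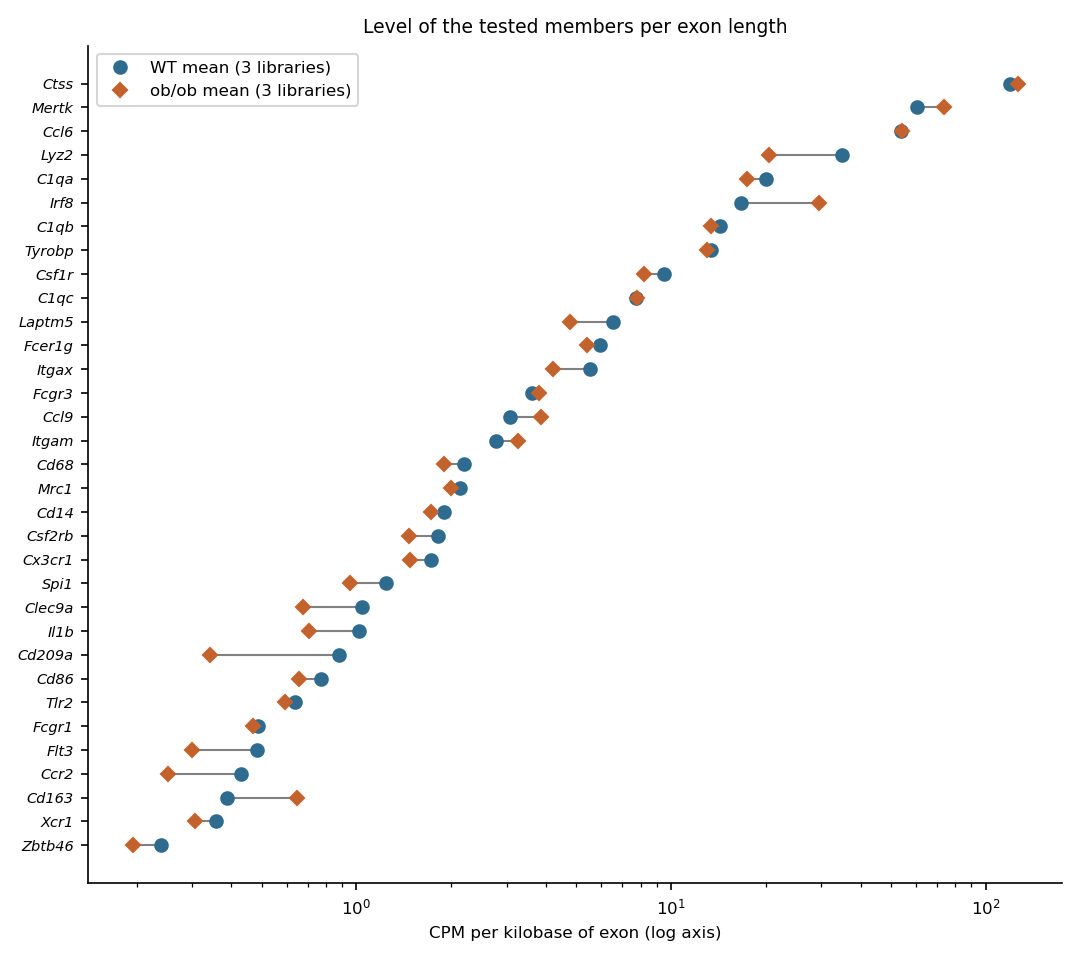
Mean CPM per kilobase of exon of the 33 tested members in WT (circles) and ob/ob (diamonds) on a log axis, ordered by the WT level, with a line joining both groups. Ctss, Mertk and Ccl6 lie at the top and Zbtb46 at the bottom, and Irf8 moves from 16.6 to 29.6 CPM per kilobase.

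C1qa, C1qb and C1qc encode the chains of complement C1q, which in tissues comes mainly from macrophages, and lie side by side on chromosome 4 between 136880129 and 136898803. C1qa had 16.9, 17.0 and 20.4 CPM in ob/ob and 24.2, 18.6 and 19.5 CPM in WT libraries. The log2 fold changes were −0.20 ± 0.12 for C1qa, −0.10 ± 0.13 for C1qb and 0.01 ± 0.14 for C1qc, none past the threshold, and WT library 1 was the highest library for all 3 genes. Without that library they were −0.07, 0.04 and 0.13. Mrc1 and Cd68, general macrophage markers, had −0.09 ± 0.10 and −0.22 ± 0.24. Trem2, the lipid-sensing receptor of macrophages in fat tissue and brain, was counted 1, 1 and 2 times in ob/ob and 0, 3 and 0 times in WT libraries, which is at or under the limit of detection.

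The Fc receptors and their adaptors had the median log2 fold change nearest to 0 of all roles, −0.04 over 4 genes. Fcgr1 and Fcgr3, which bind immunoglobulin G, had −0.04 ± 0.28 and 0.07 ± 0.16, and the signalling adaptors Fcer1g and Tyrobp had −0.15 ± 0.17 and −0.05 ± 0.16. All 4 overlapped between groups, with adjusted p from 0.603 to 0.946 by edgeR. Fcgr3 shares 9.58% of its stretches of 50 bases with Fcgr2b. Downstream of these adaptors, the kinase Syk fell, with 15.8, 18.1 and 16.7 CPM in ob/ob and 37.4, 24.3 and 23.4 CPM in WT libraries. Its log2 fold change was −0.75 ± 0.17 (edgeR, adjusted p = 0.0397), and the adjusted p was 0.125, 0.106 and 0.103 without ob/ob libraries 1, 2 and 3. Syk was the 1 call among 19 tested co-receptors and signalling partners of the members, beside 5.67% of all tested genes. Of these 19 genes, 15 had fold changes below 0, as had 6936 of all 13168 tested genes. B cells also use Syk.

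Of the 7 tested integrins, chemokines and chemokine receptors, the groups did not overlap for 3, Itgax and Ccr2 below WT and Ccl9 above. Over all tested genes 16.2% separated below and 15.8% above, and none of these 3 members passed the test. Itgax, the dendritic cell and macrophage integrin CD11c, had 17.6, 21.8 and 21.4 CPM in ob/ob and 30.9, 23.4 and 25.6 CPM in WT libraries. Ccr2, which brings monocytes into tissue, had 2.09, 1.22 and 1.79 CPM in ob/ob and 3.21, 3.10 and 2.39 CPM in WT libraries. All ob/ob libraries lay below WT for both genes, although the adjusted p was 0.0828 for Itgax (−0.39 ± 0.12) and 0.0850 for Ccr2 (−0.77 ± 0.24). Scaled by total counts alone, both passed the threshold, with 0.0302 and 0.0477, and over all alternatives the adjusted p ranged from 0.0302 to 0.226 for Itgax and from 0.0327 to 0.199 for Ccr2. A share of 8.02% of the 50-base stretches of Itgax also occurs in Itgad.

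The ligands of Ccr2 were under the filter. Ccl8, a ligand of Ccr2 and other receptors, was counted 14, 15 and 15 times in ob/ob and 5, 0 and 4 times in WT libraries, and was chosen for naming after its values were seen. The groups did not overlap in CPM, and no test was run on it. Itgam, the integrin CD11b, lies next to Itgax on chromosome 7 and had the opposite direction, with 19.3, 14.96 and 14.8 CPM in ob/ob and 16.0, 12.1 and 13.8 CPM in WT libraries. These groups overlapped, with a log2 fold change of 0.23 ± 0.14, and 66.3% of the 50-base stretches of Itgam also lie in the overlapping gene model Gm49368.

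The chemokines Ccl9 and Ccl6 are close relatives on chromosome 11. Ccl9, which attracts myeloid cells in the mouse, had 11.02, 12.1 and 12.3 CPM in ob/ob and 9.24, 8.64 and 10.3 CPM in WT libraries. All ob/ob libraries lay above WT, with 0.33 ± 0.11 and an adjusted p of 0.0993. Ccl6 was at 97.04 ± 11.2 against 96.3 ± 17.3 CPM, with a log2 fold change of 0.01 ± 0.13, and its level per kilobase was 17.4-fold that of Ccl9 in WT. The difference between the fold changes of Ccl9 and Ccl6 was not tested. Cx3cr1, the receptor of resident gut macrophages, had −0.22 ± 0.16, and −0.04 without WT library 1, and its exons overlap those of Gm33858 on the opposite strand. Its ligand Cx3cl1 was at 118 ± 12.9 and 117 ± 12.1 CPM. Xcr1, the chemokine receptor of the Clec9a lineage, had −0.22 ± 0.28.

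The dendritic cell lectins had fold changes below 0. Clec9a, a receptor for dead cells on the Xcr1 lineage, had 1.97, 2.55 and 2.14 CPM in ob/ob and 3.89, 3.49 and 2.92 CPM in WT libraries. Cd209a, a lectin of the other lineage, had 0.493, 0.182 and 0.952 CPM in ob/ob and 1.86, 0.989 and 1.33 CPM in WT libraries. The exons of Clec9a overlap those of Clec1b on the same strand. Neither lectin overlapped between groups, with −0.62 ± 0.19 (adjusted p = 0.0828) for Clec9a and −1.35 ± 0.46 (adjusted p = 0.105) for Cd209a. Cd209a passed the filter through the WT libraries only, so that its separation was partly set by the filter, and it was not tested when any WT library was left out. WT library 2 exceeded the filter of 1 CPM by its total before normalisation. Clec10a, also a lectin, was counted 3, 5 and 8 times in ob/ob and 10, 11 and 5 times in WT libraries. Cd86, a costimulatory ligand, had −0.24 ± 0.31, and 0.18 without WT library 1.

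As a list, the dendritic cell members other than Irf8 had 7 tested genes of 9, with 0 past the threshold by edgeR. Apart from Cd209a, the other 6 had a median log2 fold change of −0.34, all below 0, and 3 had an unadjusted p under 0.05. In this direction 12.7% of all tested genes had such a p. WT library 1 was the highest library for all 7, and without that library the median of these 6 was −0.17. A wider dendritic cell list of 18 tested genes had 9 fold changes above 0 and 9 below. Its median was −0.06, and −0.015 without WT library 1. On this list Nfil3 rose and none fell, beside 5.67% of all tested genes that passed. However, Wdfy4 was called lower without WT library 1, and Wdfy4, Cd83 and Ly6d without WT library 3. Nfil3, a circadian factor needed for the Xcr1 lineage and also expressed by the gut epithelium, had 7.70, 10.3 and 8.33 CPM in ob/ob and 3.61, 2.64 and 4.36 CPM in WT libraries (log2 fold change 1.30 ± 0.20, edgeR adjusted p = 0.0122). The groups did not overlap, and the call held with any 1 library left out. Wdfy4, needed for cross-presentation and also expressed by B cells, had −1.001 ± 0.25 with an adjusted p of 0.0519, and Cd83, a surface protein of mature dendritic cells and B cells, had −0.96 (adjusted p = 0.0734).

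The lysosomal and inflammatory members were led by Lyz2, the lysozyme of macrophages and other myeloid cells. Lyz2 had 21.9, 30.0 and 29.0 CPM in ob/ob and 63.5, 37.6 and 36.5 CPM in WT libraries. All ob/ob libraries lay below WT, the mean was 0.587-fold that of WT, and the log2 fold change was −0.77 ± 0.21, with an edgeR adjusted p of 0.0645 that missed the threshold. WT library 1 was the highest by a wide margin, and without it the log2 fold change was −0.46 (adjusted p = 0.0653). Lyz2 passed the threshold without the filter on low counts (0.0395), with scaling by total counts alone (0.0290) and with the edgeR likelihood ratio test (0.00824), and over all 15 alternatives its adjusted p ranged from 0.00824 to 0.190.

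Lyz2 has a near copy, Lyz1, the lysozyme of Paneth cells, beside it on chromosome 10. Lyz1 averaged 2931 ± 569 CPM against 2226 ± 549 CPM in WT, with a log2 fold change of 0.40 ± 0.19 (adjusted p = 0.231), opposite in sign to Lyz2. The 2 genes share 15.4% of the 50-base stretches of Lyz2, so that the counts of Lyz2 are uncertain where reads could be split between them. The stretch from base −100 to −51 before each RefSeq start is shown because the copies are alike there as well. The sequences are from RefSeq on GRCm38.p6, minus strand, chr10:117282323-117282372 for Lyz2 and chr10:117292919-117292968 for Lyz1, written 5′ to 3′, with capitals at the bases that differ.

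Lyz2: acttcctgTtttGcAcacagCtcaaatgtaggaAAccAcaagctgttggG
Lyz1: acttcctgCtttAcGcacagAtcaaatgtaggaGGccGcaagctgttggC

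Aligned without gaps, 8 of these 50 bases differed. The 50 bases that follow, up to the RefSeq start, were identical in both genes, so that 92.0% of the last 100 bases were shared. Over 250 bases the identity was 60.8%. GENCODE M21 places the start of Lyz2 at base 117282321, within these last 50 bases, so that most of them lie inside that gene model.

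Ctss, which trims the invariant chain for MHC class II, had 164.9, 181.7 and 168.3 CPM in ob/ob and 157.0, 148.5 and 179.5 CPM in WT libraries, with 0.09 ± 0.08. Laptm5, a lysosomal protein of leukocytes, had −0.45 ± 0.22 and was −0.11 without WT library 1, where it reached 35.1 CPM against 18.2 to 21.0 CPM in both other WT libraries. Il1b, the inflammatory cytokine, was at 1.35 ± 0.477 and 1.94 ± 0.585 CPM, and its exons overlap an antisense gene. Cd14, the co-receptor for lipopolysaccharide, and Tlr2, the receptor for bacterial lipoproteins, had −0.13 ± 0.24 and −0.10 ± 0.26. None of these 5 passed the test.

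A wider list of macrophage and monocyte genes gave 1 call among 26 tested genes, beside 5.67% of all tested genes. Its median log2 fold change was −0.23, and −0.11 without WT library 1. Pld4, a nuclease of myeloid and B cells, fell from 7.36 ± 0.542 to 4.03 ± 0.631 CPM, with −0.86 ± 0.15 (edgeR, adjusted p = 0.0184), and the adjusted p was 0.0659 and 0.0703 without ob/ob libraries 1 and 2. Adgre1, which encodes F4/80, had −0.17 ± 0.14 (adjusted p = 0.475). Cybb and Ncf1, subunits of the phagocyte oxidase, had −0.42 and −0.48 with adjusted p of 0.133 and 0.158, and Msr1, a scavenger receptor, had 0.35 (adjusted p = 0.122).

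Several gene lists of other cells moved with these libraries. B cell genes fell in 6 of 10 tested cases with a median log2 fold change of −2.37, and their summed level was 15.6 to 23.6 CPM in ob/ob and 29.8 to 177 CPM in WT libraries. WT library 1 was the highest library for all 10 of them, and without it the median was −1.58 and 3 were called. All 10 were called without WT library 3, and 0 without WT library 2 or any 1 ob/ob library. The 12 pan-leukocyte genes all had fold changes below 0 and WT library 1 as their highest library, with 0 calls by edgeR, 2 at an unadjusted p under 0.05 and a median of −0.35 that was −0.03 without that library. Their part in the lower values of Lyz2, Laptm5, Clec9a, Itgax and the other members was not tested.

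MHC class II genes, which dendritic cells, B cells and, when induced, gut epithelium express, did not all move one way. The list held 7 of them (H2-Aa, H2-Ab1, H2-Eb1, Cd74, H2-DMa, H2-DMb1 and Ciita), and all 7 had every ob/ob library above every WT library, with a median log2 fold change of 1.18. Ciita, their master regulator, rose from 50.6 ± 26.1 to 131 ± 7.56 CPM (1.37 ± 0.28, edgeR adjusted p = 0.0292), and the others had adjusted p between 0.0589 and 0.106. Without WT library 1 all 7 passed the threshold, with a median of 1.78 and adjusted p from 0.000189 to 0.00544 by edgeR. Ciita alone passed without WT library 2, and none passed without any of the other 4. Of 4 further class II genes, added after the values had been seen, H2-Ob and H2-DMb2, which also stood in the B cell list, fell (−2.58 and −2.62, edgeR adjusted p = 0.0491 and 0.0415). WT library 1 was the highest library for both, and with 1 library left out H2-Ob was called in 2 and H2-DMb2 in 1 of 6 fits. H2-Eb2 had −1.71 (adjusted p = 0.0785), and H2-Oa was under the filter. The mean relative log2 CPM of the 7 listed genes was 0.22 in WT library 1, −1.56 in WT library 2 and −0.81 in WT library 3, beside 0.64 to 0.81 in ob/ob. Irf8 had the same order of WT libraries, with 1 the highest and 2 the lowest, and so did Csf1r and Cx3cr1, which did not rise. In ob/ob, however, Irf8 was lowest in library 2 (159.6 CPM), where the 7 listed genes had their highest mean (0.81). Whether the levels of Irf8 and of these genes are related was not tested.

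**Figure D5:**
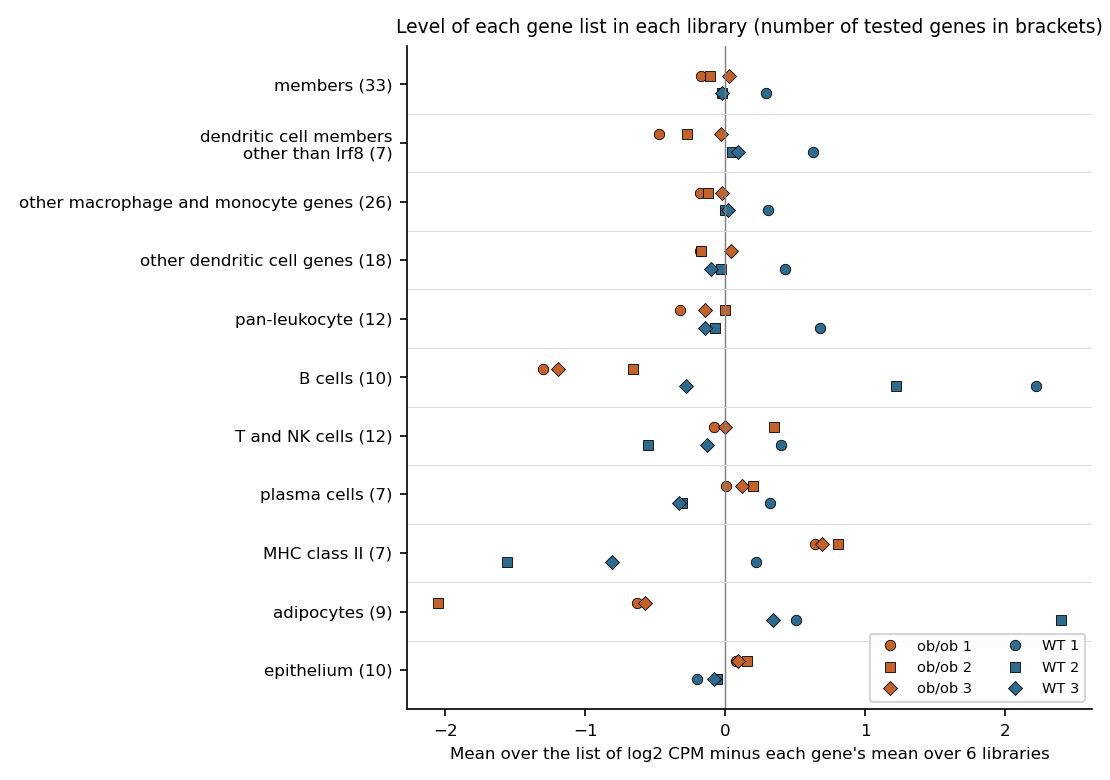
Points give the mean over each gene list of log2 CPM relative to each gene's own mean, with 3 ob/ob libraries in orange and 3 WT libraries in blue and the number of tested genes in brackets. For the members, WT 1 lies at 0.29 and all other libraries between −0.17 and 0.03, while B cell genes spread from −1.30 to 2.22 and MHC class II genes from −1.56 to 0.81.

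Genes of neutrophils, eosinophils and mast cells had few members above the filter, with 3, 2 and 2 tested genes and 0 calls by edgeR, beside 1, 0 and 1 at an unadjusted p under 0.05. Their summed levels over the 6 libraries were 3.76 to 5.77 CPM, 6.53 to 9.296 CPM and 12.4 to 21.1 CPM. Ltf, a neutrophil granule protein that epithelia also make, was called higher without WT library 1 (adjusted p = 0.0190 by edgeR). Camp, Mpo and Elane of the neutrophil list, Ear1 and Ear6 of the eosinophil list and Tpsab1 of the mast cell list had no count in any library. T cell and natural killer cell genes had a median log2 fold change of 0.18 over 12 tested genes, also with 0 calls by edgeR and 1 at an unadjusted p under 0.05. Without WT library 1 the median was 0.42 over 11 tested genes, and Gzmb, a cytotoxic granule protease, was called higher (0.90, edgeR adjusted p = 0.0431).

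Few genes passed the test in the lists of the tissue around the myeloid cells, beside 5.67% of all tested genes. Fibroblast genes had a median log2 fold change of −0.23 over 8 tested genes, 7 of them below 0, with 0 calls by edgeR and 4 at an unadjusted p under 0.05, and 3 were called lower without ob/ob library 3. Endothelial genes had −0.24 over 10 tested genes, 9 of them below 0. Kdr, the receptor for vascular endothelial growth factor, was the 1 that fell (−0.70, edgeR adjusted p = 0.0158), and it did so in all 6 fits with a library left out. Without WT library 1 these medians were −0.22 and −0.20, beside −0.04 for the members. Epithelial genes had a median of 0.26 over 10 tested genes (0.22 without WT library 1), and 3 rose, of which at most 1 was called with a library left out.

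Fat cell genes had a median log2 fold change of −2.33 over 9 tested genes. Of these, 6 had every ob/ob library below every WT library, and 2 fell by edgeR, the complement factor Cfd and the carbonic anhydrase Car3. The remaining 3 had fold changes above 0, the highest 0.91. None of these 3 was called, and 2 had an unadjusted p under 0.05 by edgeR. Cfd and Plin1 passed the filter through the WT libraries only, so that their separation was partly set by it, and the median of the other 7 was −1.62. Cfd was called in 0 of the 3 fits with a library left out that could test it (adjusted p = 0.0611 to 0.0870 by edgeR), and Car3 in 3 of 6. WT library 2 was the highest library for 7 of the 9. Without it the median was −0.87 over 6 tested genes, with Car3 and the fatty acid carrier Fabp4 called lower and Cidec called higher (0.39). Cidec had 69.6 to 96.9 CPM over the 6 libraries, where Adipoq had 0.0 to 26.8 CPM. The list also holds Pck1, which the paper studied as a gluconeogenic gene of the intestine. The cells that the Cidec and Pck1 transcripts came from were not determined. The part of these lists in the members' values was not tested.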

How the data were processed

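The authors deposited raw counts, whole numbers of reads for each gene symbol, made with TopHat2 on mm10 and HTSeq 0.6p1, and also used edgeR 3.4.2 (submitters' processing notes). The strand setting of the counting was not given in the sources used here. The deposited tables of fold changes, p-values and normalized values, 42 columns of per-sample values among them, were not used.

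Genes with more than 1 CPM, by library totals before normalisation, in 3 or more libraries were tested by the quasi-likelihood test of edgeR 4.0.16 in R 4.3.3, with TMM factors, the group as the only term, two-sided p-values and Benjamini-Hochberg adjustment over all tested genes. Adjusted p-values with no tool named are from this fit. The standard error is the log2 fold change divided by the square root of F. Replicates are pools of 2 jejuna, and p-values measure the spread between these pools. The procedure was tested on simulated data. Deviations of libraries with the same number in both groups correlated at −0.08, 0.07 and −0.02, so the numbers were not taken as pairs.

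The members and lists were chosen with earlier results of these data known. All members were accounted for, and some results outside the members are not reported here. Values in every library were given for called members, Csf1r and, in each direction, the 6 tested members with the smallest p. From the other lists up to 4 called genes, or up to 3 of high level, were to be named, and further genes beyond these were chosen after their values were seen. Counting error alone sets the floor of 3 counts. Positions and exon lengths are from GENCODE M21. Alternatives covered scaling, filters, DESeq2 1.42.0, the likelihood ratio test, limma-voom 3.58.1, the replicate block and each library left out. Figures were drawn in matplotlib 3.10.9. The median over the members under these alternatives was chosen after seeing the data.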

Additional observations from a re-analysis of the deposited data

How the results depend on the processing

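Irf8 stayed higher in ob/ob in all 15 alternatives run for single genes. The count of members called higher was 1, ranged from 0 to 1 with a library left out, and was 3 at an unadjusted p under 0.05. The count called lower, 0, became 4 with scaling by total counts alone (Itgax, Ccr2, Clec9a and Lyz2), 1 with no filter on low counts (Lyz2), 5 with the edgeR likelihood ratio test (these 4 and Cd209a) and 6 at an unadjusted p. All genes called numbered 747, and 1735 with scaling by total counts alone, 1404 with the likelihood ratio test, 3409 at an unadjusted p, 1059 with DESeq2, and 122 to 674 with a library left out (122 without ob/ob library 1, 194 without ob/ob 2, 313 without ob/ob 3 and 295 without WT 2). Called genes split into 496 higher and 251 lower, 328 and 1407 with total counts alone, and 390 and 468 with upper quartile factors. With the replicate block, 730 genes, 1 member higher and 0 lower were called. The median of the members was −0.20, −0.32 with total counts alone, and −0.28 to −0.04 with a library left out.

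Of 33 tested members, 22 kept their sign in every alternative and 27 of 477 values changed sign, none of them called. The log2 fold change of C1qc was −0.11 with total counts alone, −0.031 with upper quartile factors, −0.008 above a mean of 5 CPM, and −0.068 to 0.14 with a library left out. Ccl6 gave −0.10, −0.031 and −0.009 in the same settings and −0.12 to 0.14 with a library left out. With total counts alone Fcgr3 was −0.047 and Ctss −0.031, and limma-voom gave 0.003 for Fcgr1. With a library left out the ranges were −0.20 to 0.041 for C1qb, −0.23 to 0.22 for Fcgr1, −0.053 to 0.21 for Fcgr3, −0.17 to 0.11 for Tyrobp, −0.43 to 0.02 for Xcr1, −0.45 to 0.18 for Cd86, −0.30 to 0.063 for Cd14 and −0.34 to 0.04 for Tlr2. The cause of these changes was not tested. Batf3, Trem2 and Clec10a had at most 19 counts in a library and were not tested under the filter.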
